A study of Mus musculus with 30 samples.

Results

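The 10 genes described here, ND1, ND2, ND4, ND5, ND6, COX1, COX2, COX3, CYTB and ATP6, are carried by the mitochondrial genome (mtDNA) and encode subunits of the respiratory chain. They were taken by gene symbol from a table of 21073 genes, in which they are 10 of the 13 protein genes of the mtDNA, beside 2 ribosomal RNA genes of the mtDNA and 21058 nuclear or unplaced genes. Their levels were measured by RNA-Seq in the extensor digitorum longus (EDL), a fast muscle of the hind limb, of 30 female SJL/J mice labelled as wild type. The 6 groups of 5 mice were unimmunized mice (Ctrl), mice immunized with ovalbumin in complete Freund's adjuvant (OVA) and mice with experimental autoimmune encephalomyelitis (EAE), induced with the [Ser140]-PLP139-151 peptide in the same adjuvant, each taken on day 14, at the peak of the disease, or on day 40, in remission. The adjuvant was shared by the OVA-immunized and EAE-induced mice and absent from the unimmunized mice, and the study describes this model, made without pertussis toxin, as mild. The OVA-immunized mice thus serve as the control for the adjuvant. Each mouse was sampled once, so the days were compared between different mice, and day, age and sampling occasion cannot be told apart.

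The respiratory chain passes electrons from NADH and succinate to oxygen and uses the energy to pump protons, which drive ATP synthesis. Its complexes I, III, IV and V are built from subunits of both genomes, whereas complex II is built from nuclear subunits alone. The mtDNA is transcribed from both strands into long precursors, which are cut into separate RNAs at the transfer RNAs between the genes and, for most mRNAs, given poly(A) tails, so that the steady level of each mRNA depends on its own stability as well as on transcription.

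The members lie on the mitochondrial chromosome (MT) of GRCm38, the assembly also named mm10, and each is annotated as a single coding exon without an intron. For complex I, ND1 lies at MT:2751-3707, ND2 at MT:3914-4951, ND4 at MT:10167-11544 and ND5 at MT:11742-13565 on the plus strand, and ND6 at MT:13552-14070 on the minus strand. CYTB, the mtDNA-encoded subunit of complex III, lies at MT:14145-15288. The catalytic core of complex IV is encoded by COX1 at MT:5328-6872, COX2 at MT:7013-7696 and COX3 at MT:8607-9390, and ATP6, a subunit of the proton channel of complex V, lies at MT:7927-8607. Neighbouring genes are packed closely. ATP6 shared 43 bases with ATP8 and 1 base with COX3, ND4 shared 7 bases with ND4L, and ND5 and ND6 shared 14 bases on opposite strands.

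The last 30 bases of 5 members are shown because the libraries were made from polyadenylated RNA and the tail of these mRNAs follows the stop codon or completes it. The ND6 RNA is known to run on beyond its stop codon and to lack such a tail, so its end is not shown. The sequences come from the GENCODE vM21 transcripts, are read 5' to 3' on the coding strand, and have the bases of the stop codon in capitals.
ND1: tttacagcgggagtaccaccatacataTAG
COX2: ttcgaaaactgatctgcttcaataattTAA
COX3: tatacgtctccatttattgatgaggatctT
ND4: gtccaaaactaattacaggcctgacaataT
CYTB: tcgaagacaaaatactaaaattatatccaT
The mtDNA encodes a complete stop codon in 7 members, while COX3, ND4 and CYTB end in its first base alone, and the poly(A) tail supplies the rest. ND6 also stands apart in base composition, with 43.7% T and 28.1% G on its coding strand, while G made up 8.00% to 16.1% of the other 9 members.

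Some of the members have near-identical copies in the nuclear genome, whose reads could be assigned to either place. Of all windows of 100 bases, 99.5% of those in COX2, 99.5% in ATP6 and 99.9% in COX3 occur without a mismatch in an annotated nuclear pseudogene, in each case in 1 stretch of chromosome 1 (Gm28661 at 1:24614885-24615565, Gm10925 at 1:24613974-24614651 and Gm28437 at 1:24613189-24613971). The share was 60.8% for ND4, 30.8% for COX1 and 3.19% for ND2, and it was 0 for ND1, ND5, ND6 and CYTB. These pseudogenes are not analysed here, and how reads with several matches were counted is not given in the sources used here, so the levels of COX2, ATP6 and COX3 in particular are uncertain. The kit kept the strand of the RNA, but whether the counting used it is likewise not given. This bears on the shared bases of ND5 and ND6 and on the level of ND6 as a whole. Both strands are transcribed, the libraries were made from polyadenylated RNA and the ND6 RNA lacks a tail. What part of the ND6 reads came from the opposite strand was not tested, so the level of ND6 is uncertain too.

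Levels are given as RPKM, the reads on a gene scaled by the length of its exons and by the mapped reads of the mouse, so that levels of different genes can be compared. Over the 30 mice the median level was 18925 RPKM for COX1, the most abundant of all genes in 16 of 30 mice and never below rank 8, 13417 for CYTB and 12401 for ND1. Then followed ND2 with 8429, ND6 with 7911 and ND4 with 5512 RPKM. The lowest were ND5 with 3154, COX2 with 2184, ATP6 with 1920 and COX3 with 1567 RPKM, so that the subunits of complex IV were found at both ends of the order. COX1 exceeded CYTB, ND1 exceeded ND2, ND6 exceeded ND4 and ATP6 exceeded COX3 in 30 of 30 mice, and ND4 exceeded ND5 in 29 of 30. CYTB exceeded ND1 in 27 mice, ND5 exceeded COX2 in 24 and COX2 exceeded ATP6 in 24, so these neighbours did not keep their order in every mouse. ND2 exceeded ND6 in 18 of 30 mice, and their levels did not differ beyond their spread. The 3 members with near-complete nuclear copies were the 3 lowest. Of the other mtDNA genes, the ribosomal RNA genes RNR2 and RNR1 had medians of 2899 and 2013 RPKM, and the short protein genes ND3, ND4L and ATP8 had 343, 263 and 235 RPKM.

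**Figure D1:**
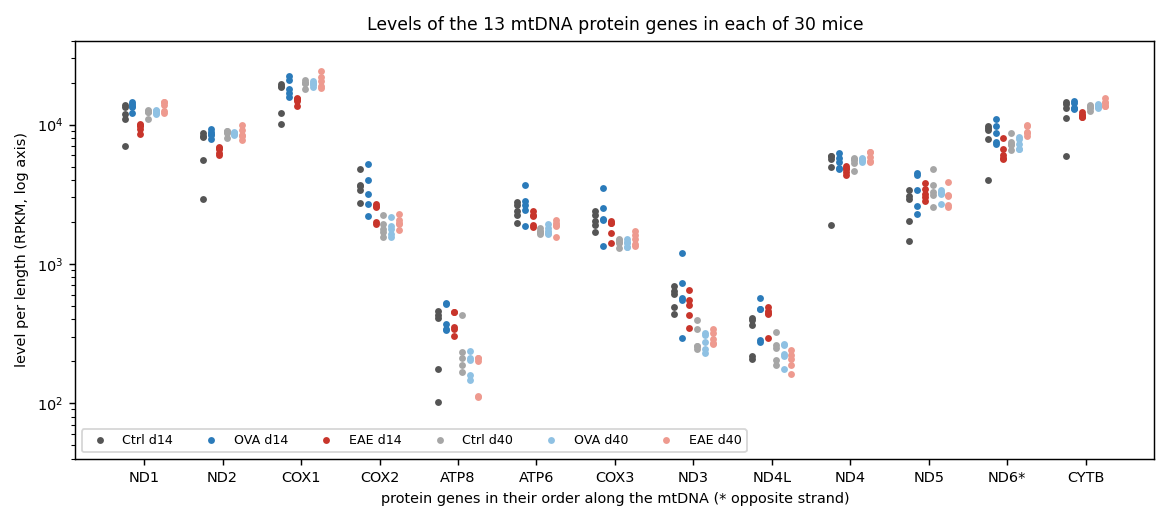
RPKM (log axis) of the 13 mtDNA protein genes in their order along the mtDNA, with 1 point per mouse coloured by group and the minus-strand gene ND6 starred. COX1 stood highest with a median of 18925 RPKM, COX2, ATP6 and COX3 were the lowest of the 10 members at 2184 to 1567 RPKM, and the short genes ND3, ND4L and ATP8 lay below them.

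Together the 10 members took an estimated 4.44% to 10.4% of the mapped reads of a mouse, with a median of 8.69%. This share was computed back from RPKM and the exon length of each gene. Summed over the genes with an exon length, the same product came to 1.48 to 1.57 times the mapped reads of a mouse. This is more than all of them, and the sum differed between mice. The shares below, and their differences between groups, are therefore approximate, and the cause of the excess was not tested. COX1 alone held on average 33.3% of the members' reads, CYTB 17.6%, ND1 13.6%, ND2 9.72% and ND4 8.61%, while COX2, ATP6 and COX3 held 2.11%, 1.71% and 1.66%. On day 14 the share of mapped reads was 7.72% ± 2.05 (SD, n = 5) in the unimmunized mice, or 8.54% ± 1.06 without the mouse at 4.44%, 9.09% ± 0.63 in the OVA-immunized mice and 7.25% ± 0.23 in the EAE-induced mice. The 5 EAE-induced mice, at 7.01% to 7.51%, lay below each of the OVA-immunized mice, at 8.45% to 9.98%, and within the range of the unimmunized mice, at 4.44% to 9.29%. On day 40 the share was 8.75% ± 0.22, 8.75% ± 0.18 and 9.27% ± 0.77 in the same order, and the 3 groups overlapped. Since the muscle was measured as a whole, fewer cells of a type and less RNA per cell cannot be told apart.

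2 features of the libraries touch the results. Unimmunized mouse 4 of day 14 had the lowest share, 4.44%, and the lowest level of all mice in ND1 (6986 RPKM), ND2 (2922 RPKM), COX1 (10112 RPKM), ND4 (1911 RPKM), ND5 (1458 RPKM), ND6 (3968 RPKM) and CYTB (5922 RPKM), but not in COX2, ATP6 or COX3. The main values that include this mouse are therefore also given without it. The mice also differed in how far short nuclear genes (exons under 1000 bases) stood above long ones (over 4000 bases): this difference, of the medians over genes of the log2 deviations from each gene's average, ranged from −0.72 to 1.08 and averaged 0.38 ± 0.44 in unimmunized, 0.26 ± 0.50 in OVA-immunized and −0.11 ± 0.32 in EAE-induced mice on day 14, and −0.31 ± 0.28, −0.22 ± 0.06 and 0.00 ± 0.21 on day 40. It was highest in unimmunized mouse 1 (1.08) and OVA-immunized mice 1 (0.908) and 5 (0.687) of day 14. The ratio of COX2 to COX1, which ranged from 0.0791 to 0.394, averaged 0.251, 0.191 and 0.158 in the groups of day 14 in the same order and 0.0940, 0.0919 and 0.0968 on day 40. Its part in the differences of COX2 was not tested beyond a correction for gene length, whose values are given beside the calls.

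The muscle carried its labelled identity: MYH4, the fastest myosin heavy chain, had a median of 6241 RPKM and ACTN3, the fast-fibre actinin, 1578 RPKM, against 102 RPKM for the slow myosin MYH7. All genes whose average reached over 3 RPKM in 1 or more of the compared groups were tested with limma, which fits all genes together, and a gene was called when its Benjamini-Hochberg adjusted p over all genes tested was below 0.05 and its fold change above 1.5. All 10 members were tested in every comparison. Fold changes are differences of log2(RPKM + 0.1), and nothing in the labels says more of the mice than that they were separate samples.

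**Figure D2:**
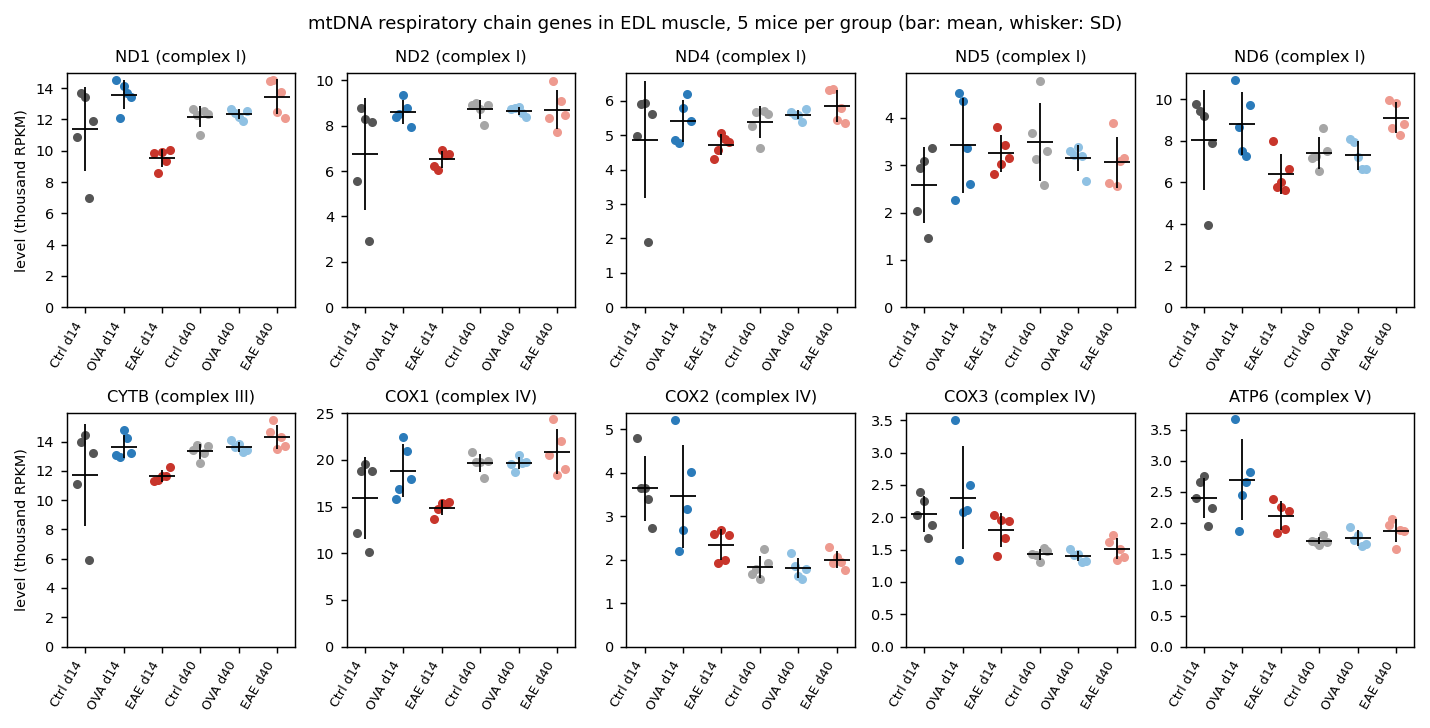
Level (RPKM divided by 1000) of each of the 10 members, 1 panel per gene with an axis from 0, with 1 point per mouse, a bar at the mean of each of the 6 groups and a whisker of 1 SD. COX2 had a mean of 3643 RPKM in unimmunized and 2349 in EAE-induced mice on day 14, and unimmunized mouse 4 of day 14 was the lowest mouse in 7 of the panels.

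The first comparison asks how the members stood in EAE-induced mice at the peak of the disease against unimmunized mice. COX2, the subunit of complex IV that takes electrons from cytochrome c, was the 1 member of 10 called, and it was lower. It measured 4798, 3640, 3652, 3404 and 2720 RPKM in the unimmunized mice and 2586, 1928, 2677, 1982 and 2573 RPKM in the EAE-induced mice. The groups did not overlap, but the highest EAE-induced mouse lay just under the lowest unimmunized one. The means were 3643 ± 749 and 2349 ± 363 RPKM (SD, n = 5 each), a fold of 0.649 or a log2 fold change of −0.62 (SE 0.21, 95% interval −1.07 to −0.18, adjusted p = 0.0238). Of all 8771 genes tested, 26.4% were called, 14.6% higher and 11.8% lower (1282 and 1036 genes, or 953 and 1258 under median-of-ratios scaling), and in 11% the EAE-induced group lay wholly below, so that 1 of 10 members is near the background. Without unimmunized mouse 1 or EAE-induced mouse 2 or 4, COX2 was no longer called, with log2 fold changes of −0.52, −0.56 and −0.57 and adjusted p-values of 0.0630, 0.0626 and 0.0566. It was −0.32 after the correction for gene length and −0.31 after quantile normalization, and not called in either. Quantile normalization gives each value the average level of its rank, so a gene that keeps its rank shows a difference of 0. The members ranked near the top of all genes, with COX1 at 1 to 8 and ND1 at 4 to 10, which limits what this setting can show for them.

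None of the other 9 members was called in this comparison. In complex I the largest difference was that of ND5, a core subunit of the proton pump, at 0.39 on the log2 scale (adjusted p = 0.174). After quantile normalization ND5 was called, at 0.73 (adjusted p = 0.0303). The members split into 4 higher and 6 lower with a median of −0.11, against a median of 0.11 over all genes, and the split changed with the scaling, to 1 higher and 9 lower under median-of-ratios scaling and to 8 higher and 2 lower under quantile normalization. Part of this rests on unimmunized mouse 4. Without it, ND1, which sits where ubiquinone is reduced, had a log2 fold change of −0.39 (adjusted p = 0.0139) and ND6, a subunit of the membrane arm, one of −0.51 (adjusted p = 0.0132), both under the 1.5-fold threshold, COX2 stood at −0.64 (adjusted p = 0.0325), and ND2, ND4, COX1 and CYTB lay between −0.25 and −0.17.

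Against OVA-immunized mice of day 14, which had received the same adjuvant, the level of all 10 members was lower on average in EAE-induced mice, and this held for 7 of 10 under quantile normalization and for 9 of 10 after the length correction. ND1 measured 14533, 12072, 14115, 13703 and 13461 RPKM in the OVA-immunized mice and 9845, 8571, 9888, 9349 and 10038 RPKM in the EAE-induced mice. The highest EAE-induced mouse was thus well below the lowest OVA-immunized one, with a log2 fold change of −0.51 (SE 0.16, adjusted p = 0.0225), which did not reach 1.5-fold. COX1, which holds the oxygen-binding centre of complex IV, measured 15767, 16873, 22496, 20997 and 17999 RPKM against 13638, 14705, 15330, 15314 and 15476 RPKM. These groups did not overlap either, at a log2 fold change of −0.33 that did not pass the test. ND2, an antiporter-like pump subunit of complex I (−0.40), and CYTB, which oxidizes ubiquinol in complex III (−0.23), likewise lay wholly below in the EAE-induced mice. This made 4 of 10 members whose groups did not overlap, against 8.2% of all genes with the EAE-induced group below. These 4 moved together between mice, with correlations given below, and are not independent of each other.

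None of the 10 members was called in this comparison by limma, and 2 had an unadjusted p below 0.05, against 4155 of the 8674 genes tested. Of these genes 20.3% were called, 11% higher and 9.28% lower (957 and 805 genes, or 714 and 999 under median-of-ratios scaling). COX2 had a log2 fold change of −0.51 (adjusted p = 0.0669), ND6 −0.46 (0.111), ATP6 −0.32, COX3 −0.30, ND4 −0.19 and ND5 −0.03. The median of the members was −0.33, against 0.11 over all genes. OVA-immunized mouse 2 had the lowest COX2 of its group, 2210 RPKM, and without it COX2 was called at −0.65 (adjusted p = 0.0200). Under median-of-ratios scaling ND1 (−0.60, adjusted p = 0.0133) and COX2 (−0.60, adjusted p = 0.0331) were called.

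OVA-immunized and unimmunized mice of day 14 were not told apart in any member. The log2 fold changes ranged from −0.12 in COX2 to 0.45 in ND2, 9 of 10 were above 0, the smallest adjusted p was 0.561 and no member had an unadjusted p below 0.05. Of 8471 genes, limma called 0.142% and 821 had an unadjusted p below 0.05. The median of 0.27 rested on unimmunized mouse 4 and was 0.06 without it.

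**Figure D3:**
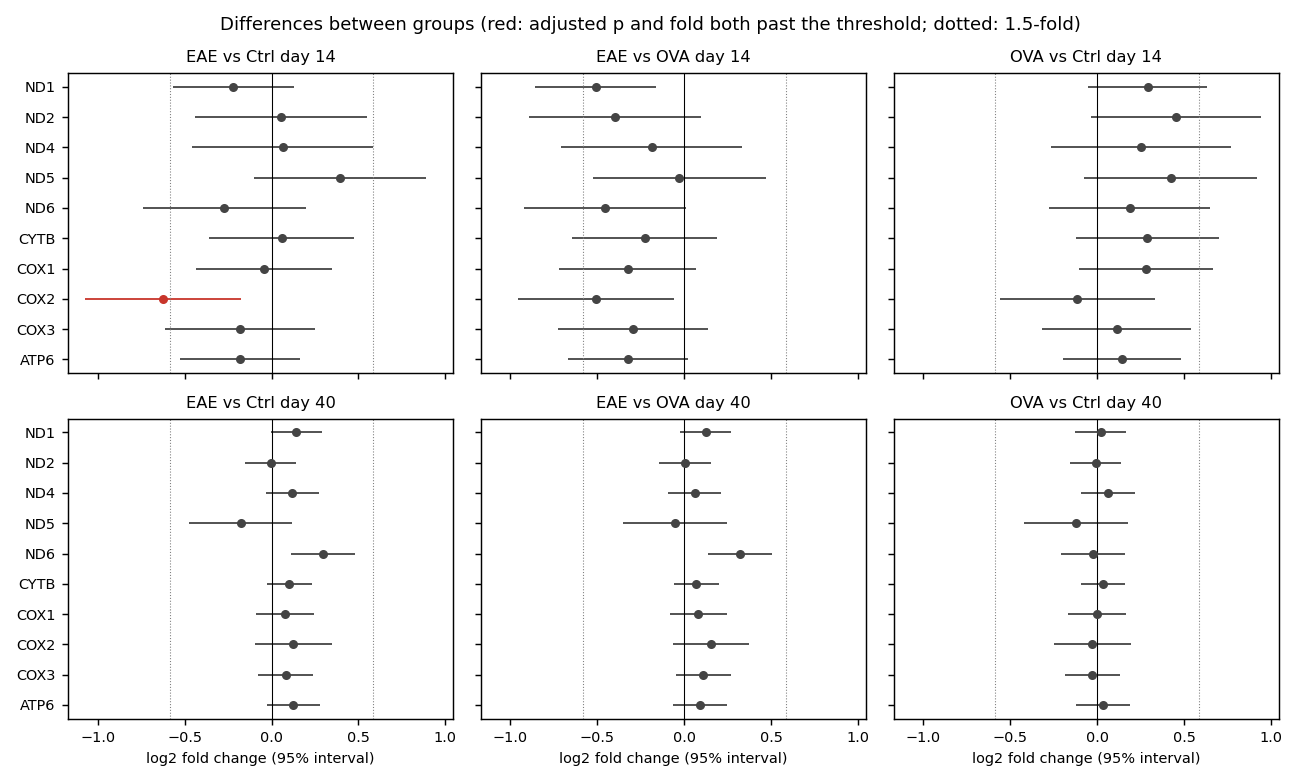
Log2 fold change of each member with its 95% interval from limma (line) in the 6 comparisons between groups of 1 day, with dotted lines at the 1.5-fold threshold and called members in red. COX2 in EAE vs. Ctrl on day 14, at −0.62, was the 1 call, and the differences of day 40 ranged from −0.18 to 0.32.

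On day 40, in remission, the differences between groups were smaller. Against unimmunized mice, 8 of 10 members were higher in EAE-induced mice, but 4 of 10 under quantile normalization and 1 of 10 after the length correction, with log2 fold changes from −0.18 in ND5 to 0.30 in ND6 and a median of 0.11. None was called by limma and 1 had an unadjusted p below 0.05, while 0.46% of 8691 genes were called and 2423 had an unadjusted p below 0.05. ND6, the member on the minus strand, stood out with 7170, 7274, 6561, 8630 and 7495 RPKM in unimmunized and 9945, 8639, 9832, 8270 and 8823 RPKM in EAE-induced mice. Unimmunized mouse 4 of day 40 reached into the range of the EAE-induced mice, and the adjusted p was 0.0688. Against OVA-immunized mice of day 40, with 8101, 7941, 7237, 6641 and 6630 RPKM, ND6 of the EAE-induced mice did not overlap (log2 fold change 0.32, adjusted p = 0.0962).

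In that comparison 9 of 10 members were higher in EAE-induced mice, but 5 of 10 under quantile normalization and 4 of 10 after the length correction, with a median of 0.09. None was called by limma and 1 had an unadjusted p below 0.05. Of 8598 genes, 0.209% were called, 1500 had an unadjusted p below 0.05 and in 0.977% the EAE-induced group lay wholly above. OVA-immunized and unimmunized mice of day 40 differed by −0.12 to 0.06 with a median of −0.01. None of the members was called by limma or had an unadjusted p below 0.05, where 0% of the 8706 genes were called and 272 had an unadjusted p below 0.05.

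Between day 14 and day 40 the control groups differed in COX2 and its neighbours on the mtDNA. In unimmunized mice COX2 was the 1 member called. Its 5 values of day 14, given above, were followed on day 40 by 1681, 1782, 1566, 2235 and 1922 RPKM. The days did not overlap, and the log2 fold change was −0.97 (SE 0.17, adjusted p = 0.000596), or −0.42 after the length correction, where it was not called and ND2 (0.90), COX1 (0.65) and CYTB (0.65) were called higher. ATP6 (−0.48, adjusted p = 0.00800) and COX3 (−0.51, adjusted p = 0.0178) also lay wholly below their day 14 values and ND2 had a log2 fold change of 0.47 (adjusted p = 0.0417), none of them at 1.5-fold. Over the 8788 genes 9.37% were called, 4.35% called lower, and in 5.2% the day 40 group lay wholly below. Without unimmunized mouse 2 or 5 of day 14, ND2 (0.60, adjusted p = 0.0210) and ND5 (0.59, adjusted p = 0.0274), respectively, were called as well, and without unimmunized mouse 4 of day 14 the median over the members moved from 0.19 to −0.05.

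In OVA-immunized mice 3 of 10 members were called lower on day 40, against 1.71% of the 8648 genes called lower and 3.97% in either direction. COX2 measured 5205, 2210, 2693, 3176 and 4025 RPKM on day 14 and 2157, 1865, 1634, 1565 and 1780 RPKM on day 40, with a log2 fold change of −0.89 (SE 0.17, adjusted p = 0.00117) and no overlap. ATP6 measured 3673, 1869, 2452, 2654 and 2820 RPKM and then 1937, 1722, 1803, 1629 and 1663 RPKM (−0.59, adjusted p = 0.00289). COX3, a structural core subunit of complex IV, measured 3509, 1333, 2078, 2106 and 2500 RPKM and then 1513, 1420, 1436, 1311 and 1322 RPKM (−0.65, adjusted p = 0.00791). In ATP6 and COX3 OVA-immunized mouse 2 of day 14 lay within the range of day 40, so 1 of 10 members did not overlap, against 3.89% of all genes with the day 40 group below.

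These are the 3 members with near-complete nuclear copies. They moved together between mice, with correlations given below, so the 3 calls are not independent of each other. Their highest mouse of day 14 was OVA-immunized mouse 1, which also had the second highest short-gene measure. Without this mouse ATP6 (−0.47, adjusted p = 0.0130) and COX3 (−0.48, adjusted p = 0.0329) were below 1.5-fold, ATP6 alone was also below it without OVA-immunized mouse 5 of day 14 (−0.57) and mouse 4 (−0.56) or 5 (−0.57) of day 40, and after the length correction COX2 (−0.51), ATP6 (−0.21) and COX3 (−0.31) were not called. The median over the 10 members was −0.10. The 3 short protein genes of the mtDNA were called lower too: ND3, ATP8 and ND4L had log2 fold changes of −1.14, −1.12 and −0.81 (adjusted p = 0.00195, 0.0229 and 0.0138). Nuclear copies held 97.6% of the windows of ND3 and 98.5% of those of ND4L, but 0 of those of ATP8. In unimmunized mice ND3 was called (−0.94, adjusted p = 0.00576) while ND4L (−0.34) and ATP8 (−0.22) were not.

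In EAE-induced mice the days lay apart in other members. ND1 was 14449, 14498, 12484, 13758 and 12071 RPKM on day 40 against at most 10038 RPKM on day 14, a log2 fold change of 0.49 (adjusted p = 0.00171). COX1 measured 20564, 24360, 18355, 22004 and 19018 RPKM on day 40 (0.48, adjusted p = 0.00653), and its lowest value lay above each of the 5 mice of day 14. ND6 measured 8011, 5777, 6019, 5622 and 6625 RPKM on day 14, all below the 8270 RPKM of the lowest mouse of day 40 (0.51, adjusted p = 0.0144).

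The EAE-induced groups of the 2 days thus did not overlap in ND1, COX1 and ND6, nor in ND2 (0.41, adjusted p = 0.0540), ND4 (0.30, adjusted p = 0.178) and CYTB (0.30, adjusted p = 0.0933), which makes 6 of 10 members with day 40 above, against 10.2% of all genes. Of these, ND1, ND2, ND4, COX1 and CYTB moved together between mice, with correlations given below, and are not independent of each other. None of the 10 members reached both thresholds, and 4 had an unadjusted p below 0.05 with limma, against 4801 of the 8709 genes. Of these genes 21.1% were called, 8.36% higher and 12.7% lower (728 and 1106 genes, or 978 and 819 under median-of-ratios scaling). COX2 (−0.22), ATP6 (−0.18), COX3 (−0.25) and ND5 (−0.10) lay below 0, and the median over the members was 0.30 against −0.11 over all genes. Under quantile normalization, where a gene that keeps its rank shows a difference of 0, this median turned to −0.06, with 3 members higher and 6 lower. ND6 was called at 0.60 (adjusted p = 0.00753) without EAE-induced mouse 1 of day 14, and under median-of-ratios scaling, which moved the median of all genes from −0.11 to −0.001, ND1 (0.60) and ND6 (0.62) were called. In these mice ATP8 (−1.21, adjusted p = 0.00229), ND4L (−1.04, adjusted p = 0.000192) and ND3 (−0.72, adjusted p = 0.0112) were called lower on day 40.

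The change of the difference to the controls from day 14 to day 40 was tested by an interaction term fitted to the 30 mice together, in which a positive value means that EAE-induced mice stood higher relative to the controls on day 40 than on day 14. Against unimmunized mice 1 of 10 members was called: COX2 with 0.75 (SE 0.24, adjusted p = 0.0123), from −0.62 on day 14 to 0.13 on day 40. It was not called after the length correction (0.22) or quantile normalization (0.41), where ND5 was called instead (−1.08), and the median over the members, 0.19, turned to −0.22 and −0.23. Of the 9013 genes 32.7% were called and 11.7% called higher, 1059 against 1888 lower (1374 against 1379 under median-of-ratios scaling). ND6 had 0.57 (adjusted p = 0.0541) and ND5 −0.57 (adjusted p = 0.0961). ND6 was called at 0.80 (adjusted p = 0.000455) without unimmunized mouse 4 of day 14, at 0.65 without EAE-induced mouse 1 of day 14 and at 0.62 without unimmunized mouse 4 of day 40, and ND5 at −0.68 without unimmunized mouse 5 of day 14.

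Against OVA-immunized mice 3 of 10 members were called, ND1 with 0.63 (adjusted p = 0.00685), COX2 with 0.66 (adjusted p = 0.0340) and ND6 with 0.77 (adjusted p = 0.0148), where 21.8% of the 8935 genes were called and 8.16% called higher, 729 against 1222 lower (954 against 801 under median-of-ratios scaling). That scaling moved the median over all genes from −0.15 to −0.04 in the first interaction and from −0.16 to −0.04 in the second. COX2 was not called without any 1 of 8 mice, with values of 0.50 to 0.65 and adjusted p-values of 0.0529 to 0.0769: OVA-immunized mice 1 and 5 and EAE-induced mice 2 and 4 of day 14, and OVA-immunized mice 3 and 4 and EAE-induced mice 1 and 3 of day 40. None of the 3 was called after quantile normalization (0.01, 0.39 and 0.28) or after the length correction (0.35, 0.31 and 0.36). For OVA-immunized against unimmunized mice no member was called by limma or had an unadjusted p below 0.05, where 0% of the 8848 genes were called, and the median was −0.23. The comparisons with either control share the EAE-induced mice and are not independent of each other.

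**Figure D4:**
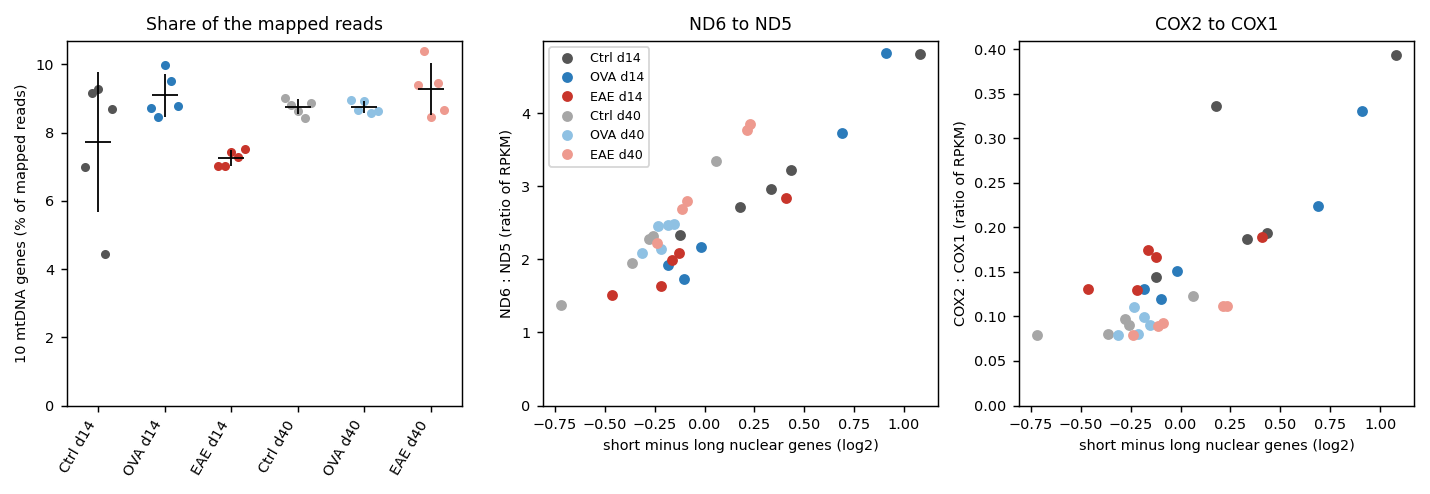
Left, the approximate share of mapped reads (%) taken by the 10 members in each mouse, with the mean and SD of each group. Middle and right, the RPKM ratios of ND6 to ND5 and of COX2 to COX1 against the short-minus-long measure (log2), with 1 point per mouse: the lowest share, 4.44%, was that of unimmunized mouse 4 of day 14, and the highest short-minus-long value, 1.08, and COX2 to COX1 ratio, 0.394, were those of unimmunized mouse 1 of day 14.

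Nuclear partners of the members were lower in EAE-induced mice on day 14 in all 5 complexes. In EAE-induced against unimmunized mice 25 of 36 nuclear subunits of complex I, 2 of 3 of complex II, 5 of 8 of complex III, 9 of 14 of complex IV and 12 of 18 of complex V were called lower and none higher, with medians of −0.77, −0.78, −0.68, −0.78 and −0.73. Against OVA-immunized mice these were 25, 3, 7, 9 and 14, with medians of −0.73, −0.77, −0.77, −0.71 and −0.70. All 79 tested were below 0 in both comparisons, 78 of 79 in EAE vs. Ctrl after the length correction, and 53 of 79 (EAE vs. Ctrl) and 58 of 79 (EAE vs. OVA) were called lower, against the 11.8% and 9.28% of all genes. After the length correction 42 and 47 were called, and without unimmunized mouse 4 of day 14 54 were called in EAE vs. Ctrl. These lists were compiled with earlier results of these data known, and their members are short, with a median exon length of 1718 bases against 4311 over all genes tested.

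COX7A1, the heart and muscle isoform of a complex IV subunit, measured 313 ± 78.5 RPKM in EAE-induced against 977 ± 203 RPKM in the unimmunized and 942 ± 354 RPKM in the OVA-immunized mice of day 14 (log2 fold changes −1.66 and −1.56). In complex I NDUFB10 measured 357 ± 82.9 against 772 ± 244 and 772 ± 195 RPKM (−1.09 and −1.11), and in complex II SDHB, its iron-sulfur subunit, 305 ± 37.9 against 619 ± 73.7 and 619 ± 129 RPKM (−1.02 and −1.01). In complex III the cytochrome CYC1 measured 269 ± 32.8 against 493 ± 57.6 and 548 ± 59.7 RPKM (−0.87 and −1.03), and in complex V ATP5G3, a subunit of the rotating ring, 682 ± 123 against 1363 ± 268 and 1330 ± 322 RPKM (−0.995 and −0.95). By comparison CYTB, the mtDNA-encoded partner of CYC1, measured 11645 ± 386 RPKM in EAE-induced mice against 13660 ± 816 RPKM in OVA-immunized and 11721 ± 3487 RPKM in unimmunized mice, or 13170 ± 1484 RPKM in these without unimmunized mouse 4 (log2 fold change −0.17).

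Within each complex the mean log2 level of the mtDNA-encoded subunits minus that of the nuclear subunits gives the balance of the genomes. For complex I it was 4.61 ± 0.60 in unimmunized, 4.94 ± 0.42 in OVA-immunized and 5.33 ± 0.25 in EAE-induced mice on day 14, and 5.49 ± 0.24, 5.40 ± 0.06 and 5.30 ± 0.23 on day 40. For complex III it was 4.41 ± 0.54, 4.62 ± 0.34 and 5.19 ± 0.23 on day 14 and 5.18 ± 0.19, 5.13 ± 0.05 and 5.01 ± 0.18 on day 40. Complex IV gave 3.59, 3.71 and 4.05 and then 3.97, 3.93 and 3.83, and complex V 3.01, 3.17 and 3.56 and then 3.22, 3.22 and 3.13. The EAE-induced mice had the highest mean of the 3 groups on day 14 and the lowest on day 40 in all 4 complexes. In complex I the mtDNA-encoded mean was 12.47 ± 0.54 in unimmunized mice of day 14, or 12.71 ± 0.16 without mouse 4, and 12.48 ± 0.03 in EAE-induced mice, while the nuclear mean was 7.86 ± 0.31 and 7.15 ± 0.26. This measure moved with the short-minus-long measure and with unimmunized mouse 4, whose balance of 3.81 in complex I was the lowest. Without this mouse the unimmunized means of day 14 were 4.81, 4.61, 3.64 and 3.07 in complexes I, III, IV and V, still below those of the EAE-induced mice, and the part of the short-minus-long measure was not tested.

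**Figure D5:**
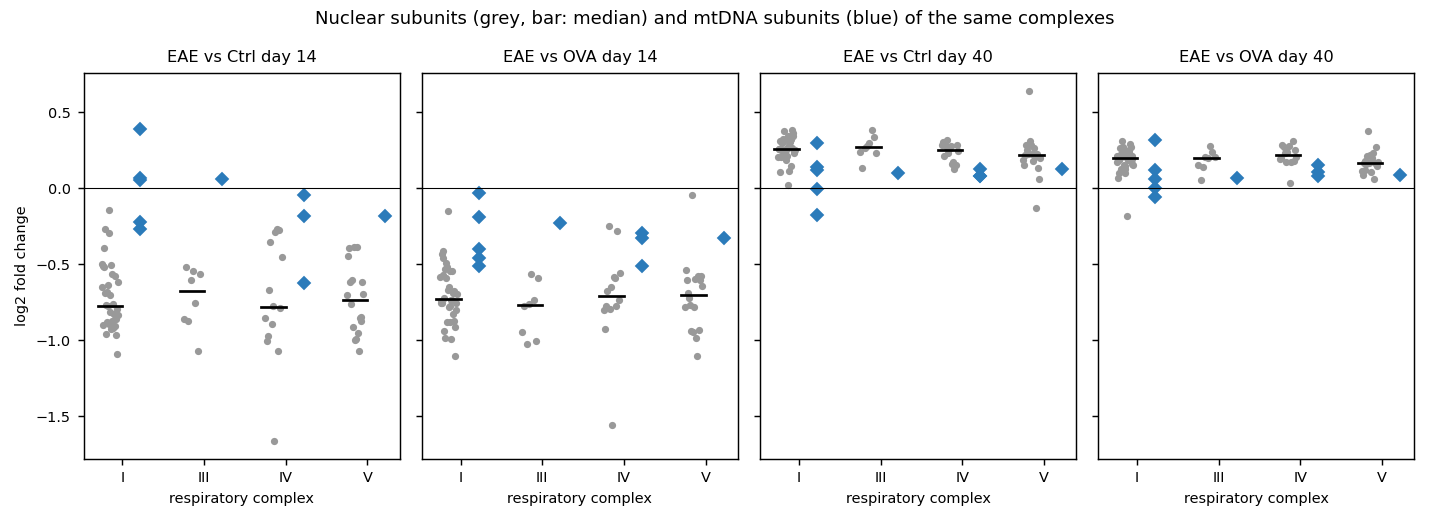
Log2 fold change of the nuclear subunits (grey points, bar at their median) and of the mtDNA-encoded members (blue diamonds) of complexes I, III, IV and V in EAE-induced mice against either control on day 14 and day 40. On day 14 the nuclear medians lay between −0.78 and −0.68, and in both comparisons the 10 members lay above the nuclear median of their complex.

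On day 40 the nuclear medians lay between 0.15 and 0.27 and no subunit was called by limma in EAE-induced mice against either control, apart from ATP5G1 of complex V, a second gene of the ring subunit, which measured 6.70 ± 1.36 against 4.24 ± 0.750 RPKM in unimmunized mice (0.64, adjusted p = 0.0420). An unadjusted p below 0.05 was found on day 40 for 27 of 36 subunits of complex I against unimmunized and for 9 of 36 against OVA-immunized mice. Among all genes these counts were 2423 of 8691 and 1500 of 8598. From day 14 to day 40, 20 subunits of complex I, 4 of complex III, 10 of complex IV and 9 of complex V were called lower in unimmunized mice and 9, 3, 9 and 8 in OVA-immunized mice. Of all genes 4.35% and 1.71% were called lower in these comparisons. After the length correction 16 and 12 subunits of all 5 complexes were called lower. In EAE-induced mice 7 of complex I, 2 of complex II, 4 of complex III, 1 of complex IV and 3 of complex V were called higher on day 40, against 8.36% of all genes. Under median-of-ratios scaling 31 of all complexes were called higher.

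Genes that make and keep mitochondrial RNA were examined from the same set of lists. Of the factors of mtDNA transcription and replication, 0 of 14 (EAE vs. Ctrl) and 0 of 13 (EAE vs. OVA) were called by limma on day 14, against 26.4% and 20.3% of all genes. An unadjusted p below 0.05 was found for 5 and 3 of these factors, against 4855 of 8771 and 4155 of 8674 genes. Of 18 genes of mitochondrial RNA processing and stability 2 were called, both higher, which is near the 14.6% and 11% of all genes called higher: PDE12, which removes poly(A) tails from mitochondrial RNA, measured 4.18 ± 0.854 RPKM in EAE-induced mice, 1.83 ± 0.620 in unimmunized mice and 2.24 ± 0.272 in OVA-immunized mice (1.22 and 0.86), and REXO2, which degrades short RNAs in mitochondria, measured 90.6 ± 13.4 against 60.1 ± 7.39 and 54.7 ± 9.38 RPKM (0.59 and 0.73). PDE12 averaged over 3 RPKM in the EAE-induced mice alone, so it was tested only through the group where it was high. Of 13 regulators of mitochondrial biogenesis 5 were called lower in each comparison, against 11.8% and 9.28% of all genes. PERM1, a muscle regulator of oxidative genes, measured 25.7 ± 12.5 RPKM against 75.4 ± 9.12 and 103 ± 20.0 (−1.69 and −2.13), and the nuclear receptor ESRRA 37.2 ± 5.65 against 68.1 ± 8.42 and 69.0 ± 11.2 RPKM (−0.88 and −0.89). PPARA, a nuclear receptor of fatty acid oxidation, was called lower against OVA-immunized mice (−0.83), and PPRC1, a coactivator related to PGC-1, higher against unimmunized mice (0.74). PPARA averaged 2.18 RPKM in EAE-induced and 3.90 RPKM in OVA-immunized mice, so in that comparison it too was tested only through the group where it was high. On day 40 limma called none of these regulators, and 7 of 13 (EAE vs. Ctrl) and 4 of 12 (EAE vs. OVA) had an unadjusted p below 0.05, against 2423 of 8691 and 1500 of 8598 genes.

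Markers of other cell types also differed between the groups of day 14. The summed level of 6 erythrocyte markers was 227 to 732 RPKM in unimmunized, 519 to 1649 in OVA-immunized and 48.9 to 216 in EAE-induced mice. Of these, 5 of 5 tested were called lower in EAE-induced mice in both comparisons, against 11.8% and 9.28% of all genes. Neutrophil markers summed to 5.09 to 11.8, 70.6 to 240 and 219 to 405 RPKM, macrophage markers to 331 to 492, 310 to 481 and 154 to 347, and endothelial markers to 132 to 175, 122 to 196 and 105 to 149 RPKM. In EAE vs. Ctrl the macrophage markers CD68, MRC1 and CD163 were not called, nor were the endothelial markers PECAM1, CDH5, TEK, TIE1, ERG, ESAM and VWF. The others tested of both lists were called lower. Of the adipocyte markers tested CFD alone was called, as lower (−1.10), and no Schwann cell marker was called. The neutrophil sum did not stand for each of its markers. In EAE vs. OVA on day 14 S100A8 was called higher (log2 fold change 2.31), while LCN2 (0.44) was not called. S100A9 (−0.96), NGP (−0.86) and RETNLG (−1.05) were lower in EAE-induced mice and not called either. Fast-fibre genes summed to 78578 to 120109 RPKM in unimmunized, 71582 to 108218 in OVA-immunized and 55241 to 73278 in EAE-induced mice, and slow-fibre genes, whose fibres are rich in mitochondria, to 1857 to 3066, 1892 to 2953 and 1087 to 1865 RPKM. These sums hid differences between genes. In EAE vs. Ctrl TNNC2 (−0.93) and PVALB (−1.47) were called lower. The other fast-fibre genes were not called, among them MYH4 (−0.001), ACTN3 (−0.09) and MYH1 (0.30). Of the slow-fibre genes MYL2, MYL3, TNNC1 and TPM3 were called lower (−1.67 to −0.79), and the others, among them MYH7 (−0.19), were not. No listed marker found in the table was at 0 in the groups of day 14, and the part of these cells and fibres in the levels of the members was not tested.

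Among themselves the members formed sets. Over the 30 mice, with the mean of each group taken out, the 10 pairs among ND1, ND2, ND4, COX1 and CYTB had correlations of log2 RPKM from 0.75 to 0.97, or 0.51 to 0.88 without unimmunized mouse 4 of day 14, and the 3 pairs among COX2, ATP6 and COX3 had 0.74 to 0.96. Between these sets the correlations were −0.31 to 0.63. Without that mouse the ranges were 0.76 to 0.96 among COX2, ATP6 and COX3 and −0.45 to 0.71 between the sets. ND5 had −0.68 to 0.74 with the other members, or −0.84 to 0.62 without that mouse. ND6 had 0.07 with ND5, its neighbour on the opposite strand, and 0.23 to 0.74 with the other 8, but −0.65 and −0.59 to 0.73 without that mouse, so its correlations with ND2, ND4, COX1 and CYTB, which turned negative, rested on 1 mouse. The ratio of ND6 to ND5 ranged from 1.37 to 4.82. These correlations describe mice that share libraries and depth across genes, and no p is given.

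Among the nuclear genes whose level followed the mean of the members most closely over the 30 mice, with group means taken out, were CYSTM1 (r = 0.72), IDH3G, a subunit of the NAD-dependent isocitrate dehydrogenase of the citrate cycle (0.71), the muscle creatine kinase CKM (0.71), NUTF2-PS1 (0.64) and SNRPF (0.61). Without unimmunized mouse 4 of day 14 the values were 0.35, 0.72, 0.41, 0.50 and 0.25 in this order. ECH1, an enzyme of fatty acid oxidation (0.56, 0.58 without that mouse), and ATP5S, a coupling factor of complex V (0.55 and 0.54), kept theirs. Among the most opposed were the interferon-induced genes IRGM1 (−0.79), SAMHD1 (−0.76), IGTP (−0.76) and IIGP1 (−0.73), which without that mouse were at −0.19, −0.58, −0.26 and −0.26.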

How the data were processed

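EDL muscle of 30 mice was measured. The authors made poly(A) libraries, used Subread for alignment to mm10 and featureCounts for the reads per gene, and computed RPKM. They deposited log2(RPKM + 1), with 0.0001 for a gene without a read (25.8% of the values), and RPKM was computed back from it. Log2(RPKM + 0.1) was compared with limma 3.58.1 in R 4.3.3 (lmFit, eBayes with trend), fitting the 15 mice of each day together or, for days and interactions, all 30. The authors' edgeR test needs read counts, which were not used here. The members and the gene lists were chosen with earlier results of these data known. Named list genes came from the 3 called genes with the largest changes per list. Annotation and sequences came from GENCODE vM21. Without a record of separate cultures or litters, p-values measure the spread between these mice. The model was tested on simulated data in which genes were independent and changes were larger than those of the members. That test cannot speak to the calls on the members. Some named items are not reported here.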

Additional observations from a re-analysis of the deposited data

Results flagged for a closer look

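4 of the 60 groups of 5 mice (10 members in 6 groups) held 1 mouse farther from the rest than Dixon's 95% limit, which chance gives in about 1 in 20 groups. ND4 was 1911 RPKM in unimmunized mouse 4 of day 14, against 4991 to 5931 in the other 4. ND1 was 11023 RPKM in unimmunized mouse 3 of day 40, against 12307 to 12665, and ND2 was 8011 RPKM in unimmunized mouse 4 of day 40, against 8754 to 8983. ND5 was 2673 RPKM in OVA-immunized mouse 5 of day 40, against 3191 to 3383.

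The interaction test between the days called COX2 against unimmunized mice (0.75 on the log2 scale), and ND1 (0.63), COX2 (0.66) and ND6 (0.77) against OVA-immunized mice. In these tests 32.7% and 21.8% of all genes were called, 11.7% and 8.16% higher. None of the 4 results was called after the length correction or quantile normalization, and those against OVA-immunized mice were not called without a filter on low values. In these 4 results EAE-induced mice stood lower than the controls on day 14 and higher on day 40.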

How the results depend on the processing

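The calls on single members were sensitive to the processing. Of 1740 values under other settings 1687 kept their side of the threshold, 31 lost and 22 gained a call, and of 1500 values without 1 mouse these were 1476, 16 and 8. Most of these values belonged to results not called in the main fit, which had no call to lose. The numbers kept therefore overstate how stable the calls were. 111 and 69 of the values, none of them called, changed sign, and the cause was not tested. Main counts of called members are those of the report.

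In EAE vs. Ctrl on day 14, 0 were called without a filter on low values and 0 after the length correction, with or without a replicate block, and the median over the members was 0.18 under quantile normalization and 0.12 after the length correction with or without the block. In EAE vs. OVA on day 14, 2 were called under median-of-ratios scaling and 1 without a fold threshold, and the median was −0.047 under quantile normalization. In Ctrl day 40 vs. day 14 the count was 2 under quantile normalization, 4 without a fold threshold, 3 after the length correction and 4 with the block added, and the median 0.58 after the correction. In OVA day 40 vs. day 14 it was 1 under quantile normalization and 0 after the correction, with or without the block, and the median 0.17. In EAE day 40 vs. day 14 it was 2 under median-of-ratios scaling and 3 without a fold threshold, and the median −0.062 under quantile normalization. For the interaction with Ctrl it was 2 under median-of-ratios scaling and 0 after the correction, with or without the block, and the median −0.23 under quantile normalization and −0.22 after the correction. For the interaction with OVA it was 0 under quantile normalization, without a filter and after the correction, with or without the block, and the median −0.00105 under quantile normalization and 0.11 after the correction.

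Leaving out each mouse in turn gave 0 to 1 called members in EAE vs. Ctrl and in EAE vs. OVA on day 14, 1 to 2 in Ctrl and 1 to 3 in OVA between the days, 0 to 1 in EAE between the days, and 1 to 2 and 2 to 3 in the interactions with Ctrl and OVA. The median ranged from 0.064 to 0.36 in OVA vs. Ctrl on day 14 and from −0.047 to 0.27 in Ctrl between the days. Replicate numbers were not taken as pairs, since 26 of 75 same-numbered pairs of mice correlated above 0.1, although the mice numbered 1 of the 3 groups of day 14 deviated together (r = 0.51 to 0.70). A replicate block alone kept the number of called members in every comparison, with COX2 at −0.62 (adjusted p = 0.00993) in EAE vs. Ctrl on day 14. The length correction and its block were added after seeing the data. The members are among the most abundant genes, so depth limits them little, while 5 mice a group and the nuclear copies of COX2, ATP6 and COX3 limit their precision and identity. The strand used in the counting, which is not given, limits the identity of ND6.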
